A study of Homo sapiens with 10 samples.

Results

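The 10 genes described here are feedback genes of MAP kinase signalling, most of them inhibitors of the ERK pathway: the dual-specificity phosphatases DUSP1, DUSP4, DUSP5, DUSP6 and DUSP10, the Sprouty genes SPRY2 and SPRY4, the Sprouty-related genes SPRED1 and SPRED2, and PHLDA1. Every probe set that names exactly 1 gene, that gene being 1 of the 10, was taken, which gave 26 probe sets of the 41091 that name a single gene, and 10 genes of 19775. The genes were compared across 10 Affymetrix HG-U133 Plus 2.0 arrays of RWPE-1, an immortalised, non-tumorigenic human prostate epithelial cell line. There were 4 arrays of cells expressing BirA and ETV1, 3 arrays labelled as cells expressing BirA and ERG, and 3 control arrays of cells expressing BirA alone. BirA, a bacterial biotin ligase, was thus present in all groups, and ETV1 and ERG are ETS-family transcription factors. All cells had been transduced with MSCV retroviruses and selected as stable clones under normal growth conditions, and the labels do not say how many clones stand behind each group.

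Receptor tyrosine kinases signal through RAS, RAF and MEK to the kinase ERK, and ERK signalling raises the transcription of its own inhibitors. Dual-specificity phosphatases remove the activating phosphates from MAP kinases, Sprouty proteins act between the receptor and RAS, and SPRED proteins bring the RAS-inactivating protein neurofibromin to the membrane. Transcripts of these inhibitors are widely used as a readout of ERK pathway output in epithelial cells.

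ETS factors bind DNA around the core GGAA, so the promoters of 3 genes with different behaviour on these arrays are shown: DUSP6 and PHLDA1, which were higher on the ETV1 arrays, and SPRY4, which did not pass the test there. Each is the 250 bases before the start of the gene in RefSeq (GRCh38.p14), at chr12:89352502-89352751 for DUSP6, chr12:76031777-76032026 for PHLDA1 and chr5:142324248-142324497 for SPRY4, all on the minus strand and written 5′ to 3′. Capitals mark GGAA, which reads TTCC where it lies on the opposite strand.
DUSP6: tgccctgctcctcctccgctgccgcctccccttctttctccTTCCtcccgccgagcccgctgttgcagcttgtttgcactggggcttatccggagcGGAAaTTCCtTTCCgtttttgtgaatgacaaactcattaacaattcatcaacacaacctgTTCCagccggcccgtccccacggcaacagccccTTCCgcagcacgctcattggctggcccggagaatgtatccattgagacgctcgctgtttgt
PHLDA1: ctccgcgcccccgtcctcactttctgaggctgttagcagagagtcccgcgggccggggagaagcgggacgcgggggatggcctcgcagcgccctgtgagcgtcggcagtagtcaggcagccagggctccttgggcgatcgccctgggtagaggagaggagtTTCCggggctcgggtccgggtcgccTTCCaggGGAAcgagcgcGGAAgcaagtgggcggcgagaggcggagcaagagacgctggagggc
SPRY4: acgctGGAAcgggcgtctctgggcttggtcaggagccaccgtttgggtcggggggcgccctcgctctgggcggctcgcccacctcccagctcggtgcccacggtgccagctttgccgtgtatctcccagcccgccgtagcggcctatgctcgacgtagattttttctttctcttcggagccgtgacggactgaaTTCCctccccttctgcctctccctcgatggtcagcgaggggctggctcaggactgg
The DUSP6 window held 6 GGAA cores, the PHLDA1 window 4 and the SPRY4 window 2, counted on both strands, against a median of 3 over 35116 promoters of this length. Among the other genes, the 2 windows of SPRED2, which was lower on the ETV1 arrays, held 4 and 5, SPRED1 held 3, the 3 SPRY2 windows held 3, 4 and 4, the 2 DUSP10 windows held 0 and 2, and DUSP1 held 0. The longer word CCGGAA occurred once in the PHLDA1 window and in neither of the other windows shown. It also occurred once in the first of the 3 SPRY2 windows, and 14.5% of all promoters hold it. CGGAAG, which can overlap CCGGAA, occurred once in the DUSP6 window and once in the PHLDA1 window, and 16.5% of all promoters hold it. Of the 10 genes, 8 had a promoter in the reference used, 12 promoters in all, and DUSP4 and DUSP5 had none. These matches are letters in a window and no measurement of binding.

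The authors deposited 1 linear intensity per probe set and array. Differences below are limma log2 fold changes on the log2(intensity + 16) scale, with their standard error (SE) and a p-value adjusted by Benjamini-Hochberg over all 25969 probe sets tested, and a probe set passed at an adjusted p under 0.05. Probe sets entered the test when 3 or more arrays had them above the array median. Intensities of different probe sets depend on their probes and were not set against each other. The labels do not say that arrays of a group came from separate clones or cultures, although the design text speaks of biological replicates, so the p-values reflect only the spread among these arrays, which may be technical. The design text gives 3 biological replicates, while there are 4 ETV1 arrays, A to D. Whether ETV1 array D is a separate clone or culture is not stated. The number of arrays limits the precision.

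The labels were checked first. ETV1 probe set 217053_x_at read 845 to 1689 on the ETV1 arrays and 70.3 to 122 on the control arrays, a log2 fold change of 3.67. ETV1 probe sets 206501_x_at and 217061_s_at rose too, by 2.67 and 2.69. In contrast 221910_at did not pass (0.14, adjusted p = 0.656), and 221911_at was too dim to be tested and its ranges overlapped. The brightest ERG probe set, 222079_at, lay at 7.70 to 10.8 on the ERG-labelled arrays and at 183 to 191 on the control arrays, and the 3 other ERG probe sets were too dim to be tested. Of these, 211626_x_at read 25.7 to 49.95 on the ERG-labelled arrays, 6.18 to 20.2 on ETV1 arrays and 5.32 to 11.2 on control arrays, without overlap. The ERG probe sets thus went different ways and do not settle that label. The arrays labelled ERG also stood apart from the rest: their rank correlation with control arrays was 0.766 to 0.811 over all 54675 probe sets, against 0.956 to 0.969 for ETV1 with control arrays. The ratio of the 3′ to the 5′ ACTB control probe set was 2.75 to 3.07 on them, 1.24 to 1.30 on ETV1 arrays and 1.35 to 1.40 on control arrays. The same ratio for GAPDH did not set them apart, at 0.946 to 1.045 on them, 0.994 to 1.05 on ETV1 arrays and 0.893 to 0.931 on control arrays. Of 8 epithelial and basal markers, 8 lay above the array median on all arrays. Of 2 luminal prostate markers on the arrays, KLK3 lay above it on all arrays and ACP3 on 6 arrays. KLK3 read 526 to 622 on ETV1 arrays, 130 to 131 on arrays labelled ERG and 489 to 656 on control arrays. Of 15 fibroblast, endothelial, leukocyte and neuroendocrine markers, 7 lay below the array median on all arrays and 3 above it on all, including PECAM1 at 1171 to 1335 on ETV1 arrays, 151 to 172 on arrays labelled ERG and 1313 to 1493 on control arrays. The part of RNA quality and of other cell types in the results was not tested.

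In ETV1 cells the feedback genes did not move as a block. DUSP4, DUSP5, DUSP6, SPRY2, SPRED1 and PHLDA1 rose, SPRED2 fell, and DUSP1, DUSP10 and SPRY4 did not pass the test. A gene is said to have risen here if at least 1 of its tested probe sets passed upward and none downward. By that rule 6 of 10 genes rose and 1 fell, while 13.5% of the 14116 genes tested rose and 18.2% fell. SPRED1 is among the 6 only through a probe set that entered the test through ETV1 arrays, where it is high, and 5 genes rose by a probe set above the median on all arrays. The shares are a description and are not read as support. DUSP4 and PHLDA1 had the largest log2 fold changes of the 10. In these bulk samples, fewer cells of a type and less RNA per cell cannot be told apart.

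By probe set, 15 of 24 tested passed in ETV1 versus control, 14 higher and 1 lower, against 23.5% of all probe sets tested, 10.4% higher and 13.1% lower. Their median log2 fold change was 0.61, against -0.03 over all tested. For 11 of the 24 the ETV1 and control arrays did not overlap, which was so for 34.1% of all probe sets tested. The genes were chosen with earlier results of these arrays known, so these shares describe them and are no independent support. Of the 24, 20 lay above the median on all arrays, and 13 of those 20 passed, 12 of them higher. The other 4 passed the filter on some arrays only: DUSP1 201044_x_at, SPRED1 244439_at, PHLDA1 217998_at and PHLDA1 218000_s_at. The 2 probe sets not tested belong to SPRED2 and read at most 49.6 on any array.

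**Figure D1:**
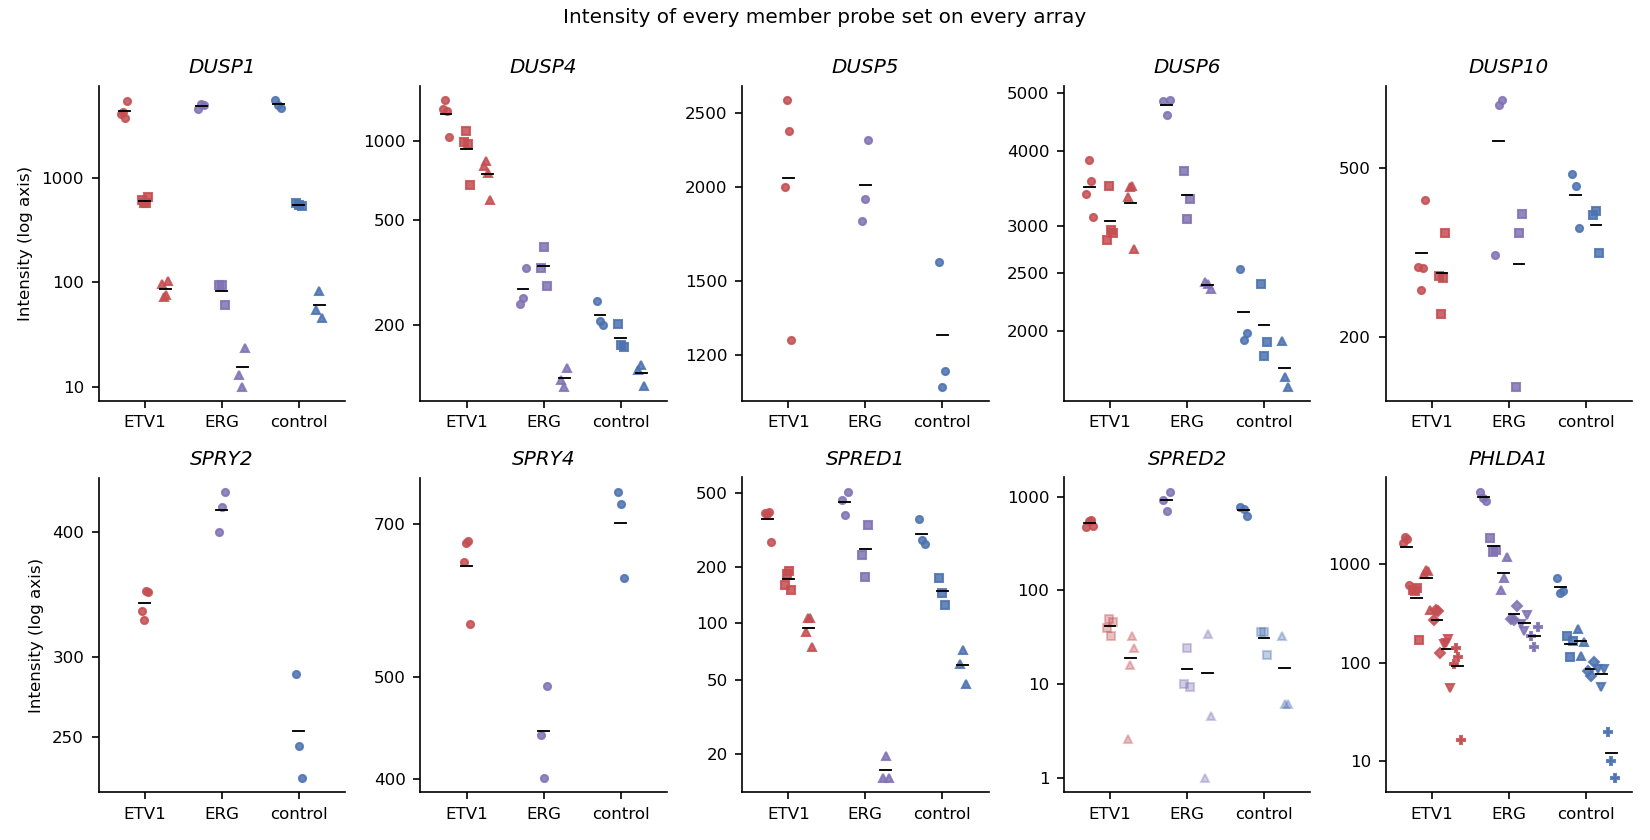
Intensity (log axis, each panel with its own range) of the 26 probe sets of the 10 genes on ETV1, ERG-labelled and control arrays. Each point is an array, each shape a probe set of that gene, each bar the group mean, and the 2 untested SPRED2 probe sets are pale. All 4 ETV1 points of each DUSP4 probe set sit above all control points, while the ETV1 points of PHLDA1 split into 3 high and 1 low.

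DUSP4, a nuclear phosphatase of ERK and JNK, rose most clearly among the phosphatases. Its probe set 226034_at read 1321, 1431, 1306 and 1037 on ETV1 arrays A to D, 239, 253 and 329 on ERG-labelled arrays A to C, and 246, 206 and 199 on control arrays A to C. Every ETV1 array lay above every other array, and the lowest ETV1 value was more than 3-fold the highest of the rest. The log2 fold change of ETV1 versus control was 2.46 ± 0.15 (SE, adjusted p = 3.6e-08). The gene's 2 other probe sets gave 2.28 ± 0.17 (204015_s_at, adjusted p = 1.8e-07) and 2.37 ± 0.14 (204014_at, adjusted p = 2.78e-08). All 3 probe sets thus moved alike, without overlap between the groups.

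The ERG-labelled arrays did not share that level of DUSP4. Probe set 204014_at averaged 125 ± 10.4 on them and 131 ± 12.1 on control arrays (SD, n = 3 each), a log2 fold change of -0.05 ± 0.15 (SE, adjusted p = 0.75). Probe set 204015_s_at averaged 335 ± 58.9 on them and 178 ± 20.3 on control arrays (SD, n = 3 each), and passed at 0.85 ± 0.18 (SE, adjusted p = 0.000425). The probe sets therefore disagreed on whether DUSP4 changed there, and 226034_at lay between them at 0.31 ± 0.16 (adjusted p = 0.0944). Set directly against ETV1, the ERG-labelled arrays were lower for all 3, by log2 fold changes of -1.43 to -2.43. Under quantile normalization 226034_at passed at 0.36 in ERG-labelled versus control, and under median centring all 3 probe sets passed, 204014_at turning to 0.35.

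DUSP6, the cytoplasmic ERK-specific phosphatase and a common marker of ERK output, rose on ETV1 arrays in all 3 of its probe sets. Probe set 208891_at read 3397, 3861, 3573 and 3109 on ETV1 arrays A to D, 4861, 4603 and 4868 on ERG-labelled arrays, and 2542, 1932 and 1987 on control arrays. As deposited, the 3 groups did not overlap and the ERG-labelled arrays were highest, but quantile normalization turned ERG-labelled versus ETV1 to -0.36 (adjusted p = 0.00729). Its log2 fold change from control was 0.70 ± 0.14 for ETV1 (SE, adjusted p = 0.00156) and 1.15 ± 0.15 for the ERG-labelled arrays (adjusted p = 2.25e-06).

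The order of ETV1 and ERG-labelled arrays depended on the DUSP6 probe set and on the scaling. Probe set 208893_s_at averaged 3275 ± 357 on ETV1 arrays (SD, n = 4), 2390.2 ± 36.3 on ERG-labelled arrays (n = 3) and 1740.0 ± 163 on control arrays (n = 3). In the direct comparison of ERG-labelled with ETV1 arrays it was lower, at -0.44 ± 0.13 (SE, adjusted p = 0.00549), whereas 208891_at was higher, at 0.46 ± 0.14 (adjusted p = 0.00565). Probe set 208892_s_at did not pass there, at 0.14 ± 0.14 (adjusted p = 0.351). Quantile normalization turned 208892_s_at to -0.66 (adjusted p = 0.000177), and median centring took it to 0.57 (adjusted p = 0.000905) and 208893_s_at to -0.016 (adjusted p = 0.915). Against control, 208892_s_at rose by 0.58 ± 0.14 in ETV1 cells (adjusted p = 0.00682), a call lost without control array B (0.50, adjusted p = 0.0512).

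DUSP5, a nuclear ERK-specific phosphatase, had a single probe set and a small difference. It read 1999, 2599.5, 2369 and 1255 on ETV1 arrays A to D, 1800.4, 1925 and 2306 on ERG-labelled arrays, and 1593, 1090.1 and 1142 on control arrays. ETV1 array D lay within the control range, and the ERG-labelled arrays lay above all control arrays. The log2 fold change from control was 0.65 ± 0.21 for ETV1 (SE, adjusted p = 0.0354) and 0.66 ± 0.23 for the ERG-labelled arrays (adjusted p = 0.014). The ETV1 call was lost without control array B (0.55) or C (0.58) and without ETV1 array A (0.65), B (0.52) or C (0.57), at adjusted p of 0.0677 to 0.143. The ERG-labelled call was lost without control array B (0.56) or C (0.60), at adjusted p of 0.0569 and 0.0616, and under quantile normalization (0.09, adjusted p = 0.72).

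DUSP1, an immediate early phosphatase of p38, JNK and ERK, did not pass in ETV1 cells by any of its 3 probe sets. Probe set 201041_s_at read 4084, 4284, 3745 and 5464 on ETV1 arrays A to D, 4573, 5091 and 4993 on ERG-labelled arrays, and 5578, 5076 and 4662 on control arrays. The 3 groups overlapped, and neither the ETV1 (-0.23 ± 0.14, adjusted p = 0.289) nor the ERG-labelled arrays (-0.06 ± 0.15, adjusted p = 0.726) passed against control. On the ERG-labelled arrays the other DUSP1 probe sets gave another picture: 226578_s_at averaged 83.1 ± 19.0 on them and 556 ± 21.3 on control arrays (SD, n = 3 each), a log2 fold change of -2.55 ± 0.15 (SE, adjusted p = 5.92e-10). Probe set 201044_x_at also fell there, at -1.27 ± 0.20 (SE, adjusted p = 2.16e-05). DUSP1 is counted as a gene that fell on these arrays, although 201041_s_at moved with the scaling, to -0.66 under quantile normalization (adjusted p = 0.000682) and 0.35 under median centring (adjusted p = 0.0421).

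DUSP10, a phosphatase of p38 and JNK, passed in neither comparison with control. Probe set 221563_at read 291, 257, 289.9 and 422 on ETV1 arrays A to D, 313, 707 and 725 on ERG-labelled arrays, and 485, 453 and 361 on control arrays. ERG-labelled array A lay far below the other two of its group, and ETV1 array D lay within the control range. The log2 fold changes from control were -0.45 ± 0.24 for ETV1 (SE, adjusted p = 0.197) and 0.33 ± 0.26 for the ERG-labelled arrays (adjusted p = 0.25). Without ERG-labelled array A the second was 0.72 and passed (adjusted p = 0.0044), and it passed under median centring (0.74, adjusted p = 0.0144). The other probe set, 215501_s_at, stood at -0.37 for ETV1 (adjusted p = 0.3) and -0.38 for the ERG-labelled arrays (adjusted p = 0.182). In ERG-labelled versus control it passed lower without ERG-labelled array C (-0.62, adjusted p = 0.0355) and stood at 0.02 without array A (adjusted p = 0.929).

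Of the Sprouty genes, SPRY2 rose slightly in ETV1 cells and SPRY4 did not pass. SPRY2 read 333, 327, 349 and 349 on ETV1 arrays A to D, 400.0, 423 and 438 on ERG-labelled arrays, and 289, 245 and 227 on control arrays. The 3 groups did not overlap. Its log2 fold change was 0.40 ± 0.13 for ETV1 versus control (SE, adjusted p = 0.0281) and 0.70 ± 0.13 for ERG-labelled versus control (adjusted p = 0.000169). The ETV1 call was lost when any 1 of the 4 ETV1 arrays, control array B or control array C was left out, with values of 0.33 to 0.42 and adjusted p of 0.0523 to 0.109.

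SPRY4, which like SPRY2 restrains signalling from receptor to RAS, fell on the ERG-labelled arrays. Its only probe set read 643, 671, 673 and 562 on ETV1 arrays A to D, 441, 401 and 491 on ERG-labelled arrays, and 750.4, 730.0 and 621 on control arrays. The ERG-labelled arrays lay below all others, while the ETV1 and control ranges overlapped. ETV1 versus control gave -0.13 ± 0.13 (SE, adjusted p = 0.53), and ERG-labelled versus control gave -0.64 ± 0.14 (adjusted p = 0.000658). Median centring took the second below the threshold, at -0.23 (adjusted p = 0.129).

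SPRED1 and SPRED2 moved little in ETV1 cells. SPRED1 226837_at read 392, 385, 396 and 274 on ETV1 arrays A to D, 458, 380.2 and 507 on ERG-labelled arrays, and 362, 279 and 267 on control arrays. Its ETV1 arrays A to C lay above the control arrays and array D among them, and the log2 fold change was 0.24 ± 0.16 (SE, adjusted p = 0.317). SPRED1 counts as risen through 244439_at alone, which averaged 94.6 ± 15.4 on ETV1 arrays (SD, n = 4), 16.5 ± 2.71 on ERG-labelled arrays (n = 3) and 60.0 ± 12.2 on control arrays (n = 3). That probe set passed the filter through 3 ETV1 arrays and no other array, and its ETV1 call (0.54 ± 0.15, adjusted p = 0.0161) was lost without control array C (0.42, adjusted p = 0.0622). On the ERG-labelled arrays SPRED1 went both ways, with 226837_at at 0.54 (adjusted p = 0.00922), 235074_at at 0.65 (adjusted p = 0.00571) and 244439_at at -1.22 (adjusted p = 3.96e-06).

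SPRED2 was the 1 gene that fell in ETV1 cells. Its probe set 212458_at read 477, 547, 564 and 482 on ETV1 arrays A to D, 927, 707 and 1125 on ERG-labelled arrays, and 781, 744 and 625 on control arrays. All ETV1 arrays lay below all control arrays. The log2 fold change was -0.45 ± 0.16 (SE, adjusted p = 0.0464), close to the threshold. It was lost when control array A or B, any ETV1 array or ERG-labelled array A was left out, with values of -0.39 to -0.50 and adjusted p of 0.0526 to 0.162, and it was lost with no filter on dim probe sets (adjusted p = 0.0928).

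PHLDA1, a pleckstrin homology-like domain protein induced by growth factor signalling, rose on both sets of arrays. Its probe set 217996_at read 1626, 1886, 1819 and 609.8 on ETV1 arrays A to D, 5437, 4658 and 4397 on ERG-labelled arrays, and 723, 506 and 534 on control arrays. ETV1 arrays A to C stood well above the control arrays and array D lay within their range, while all ERG-labelled arrays lay above every ETV1 array. The log2 fold change from control was 1.21 ± 0.29 for ETV1 (SE, adjusted p = 0.00631) and 3.02 ± 0.31 for the ERG-labelled arrays (adjusted p = 2.1e-07). In ETV1 versus control 5 of its 6 probe sets passed, at 1.21 to 1.96, and 218000_s_at did not, at 0.65 ± 0.27 (adjusted p = 0.0935). In ERG-labelled versus control all 6 passed, at 1.55 to 3.17, and they passed under quantile normalization and median centring too. Of these, 217998_at, also among the 5 for ETV1, lay above the array median on no control array. It thus entered the test through arrays where it is high.

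The PHLDA1 probe sets divided on whether the ERG-labelled arrays exceeded ETV1. Probe sets 217996_at, 217997_at, 217998_at and 218000_s_at were higher on the ERG-labelled arrays, by 0.91 to 1.83. Probe set 225842_at averaged 817 ± 327 on ERG-labelled arrays (SD, n = 3) and 717 ± 249.8 on ETV1 arrays (SD, n = 4), and did not pass (0.20 ± 0.30, adjusted p = 0.542). Probe set 217999_s_at did not pass either (0.27 ± 0.25, adjusted p = 0.33).

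**Figure D2:**
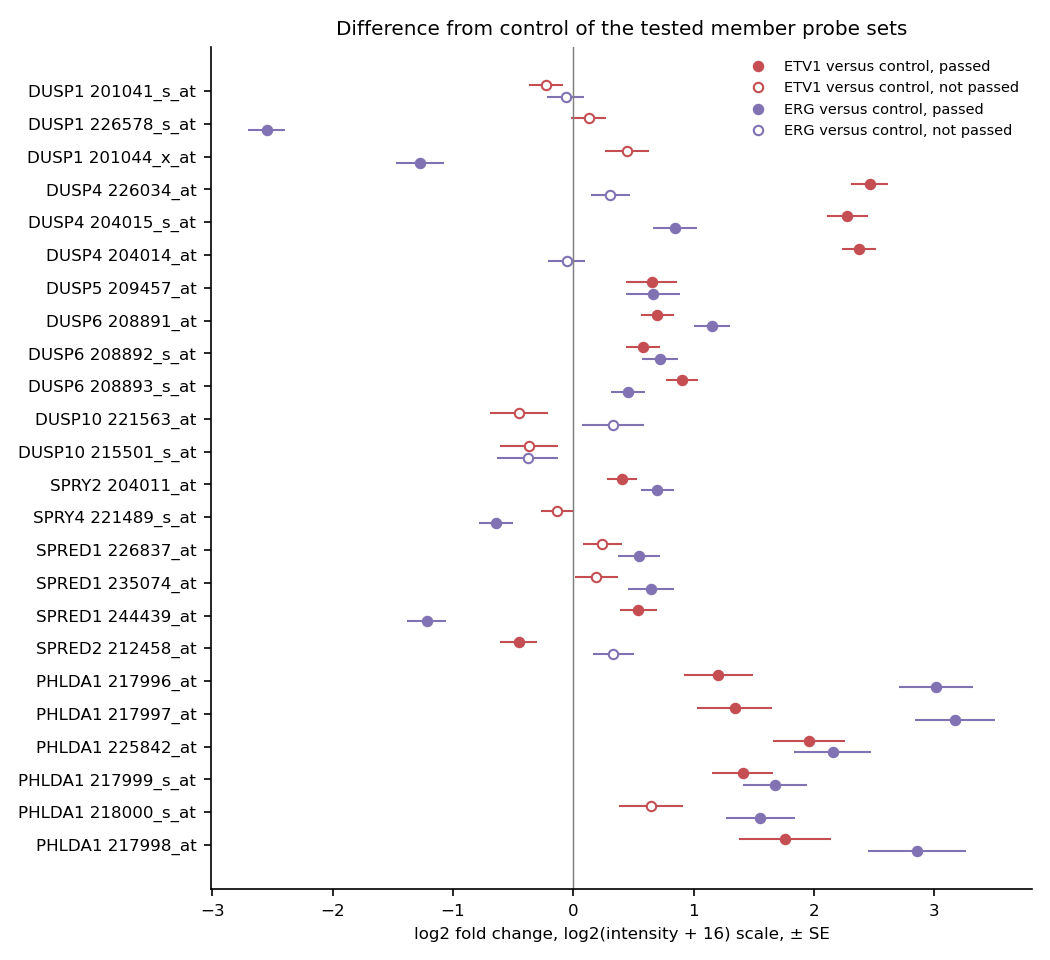
Log2 fold change from control (horizontal axis, log2(intensity + 16) scale, bars ± SE) of the 24 tested probe sets, for ETV1 and for ERG-labelled arrays, filled where the adjusted p was under 0.05. The DUSP4 probe sets lie at 2.28 to 2.46 for ETV1 and at -0.05 to 0.85 for the ERG-labelled arrays, and the PHLDA1 probe sets reach 3.17 for the ERG-labelled arrays.

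ETV1 array D differed from arrays A to C at part of the feedback genes and not at others. For PHLDA1 217996_at the log2 difference from the control mean was 1.59 over ETV1 arrays A to C and 0.07 on array D, and for DUSP5 it was 0.87 over A to C and -0.00 on D. DUSP4 kept most of its difference on array D: 226034_at stood at 2.56 over A to C and 2.18 on D. DUSP6 208891_at stood at 0.75 over A to C and 0.54 on D, and SPRY2 at 0.39 over A to C and 0.44 on D. The 6 PHLDA1 probe sets differed among themselves on array D, from -0.34 (218000_s_at) to 1.03 (225842_at), and 225842_at and 217999_s_at (0.49) lay above all control arrays there. All 6 stood lower on D than over A to C.

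Other values moved with array D. ETV1 itself was lower there: 217053_x_at read 1302, 1689 and 1443 on arrays A to C and 845 on array D. The 18S ribosomal control probe set read 874, 680.2 and 699.8 on arrays A to C and 276 on array D, against 79.4 to 159 on control arrays. Of the 6 ERK targets named below, 5 stood nearer to control on array D than over A to C, to unequal degrees. FOSL1, an ERK-responsive AP-1 subunit, read 1956, 2564 and 2239 on arrays A to C and 687 on array D, against 347 to 498 on control arrays. EGR1, an immediate early gene, read 1341, 1261 and 1139 on arrays A to C and 3479 on array D, against 3254 to 4072 on control arrays (201694_s_at). FOSL2, another AP-1 subunit, went the other way, with a log2 difference from the control mean of 0.96 over A to C and 1.54 on D. CCND1 changed little, at 1.04 over A to C and 0.84 on D, while JUN stood at -0.97 over A to C and -0.61 on D and JUNB at -0.72 over A to C and -0.44 on D. The part of ETV1 level or of the 18S signal in these values was not tested.

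Leaving array D out raised the PHLDA1 differences, which then ran from 0.98 to 2.27 over its 6 probe sets, all past the threshold. PHLDA1 218000_s_at joined the calls without it (0.98, adjusted p = 0.000654). The number of probe sets of the 10 genes past the threshold was 14 without array D, 14 higher and 0 lower, against 15 with it, and 22.3% of all probe sets then tested passed. Fitted on ETV1 and control arrays alone, without the ERG-labelled arrays, it was 16, 14 higher and 2 lower, and 31.1% of all probe sets then tested passed.

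**Figure D3:**
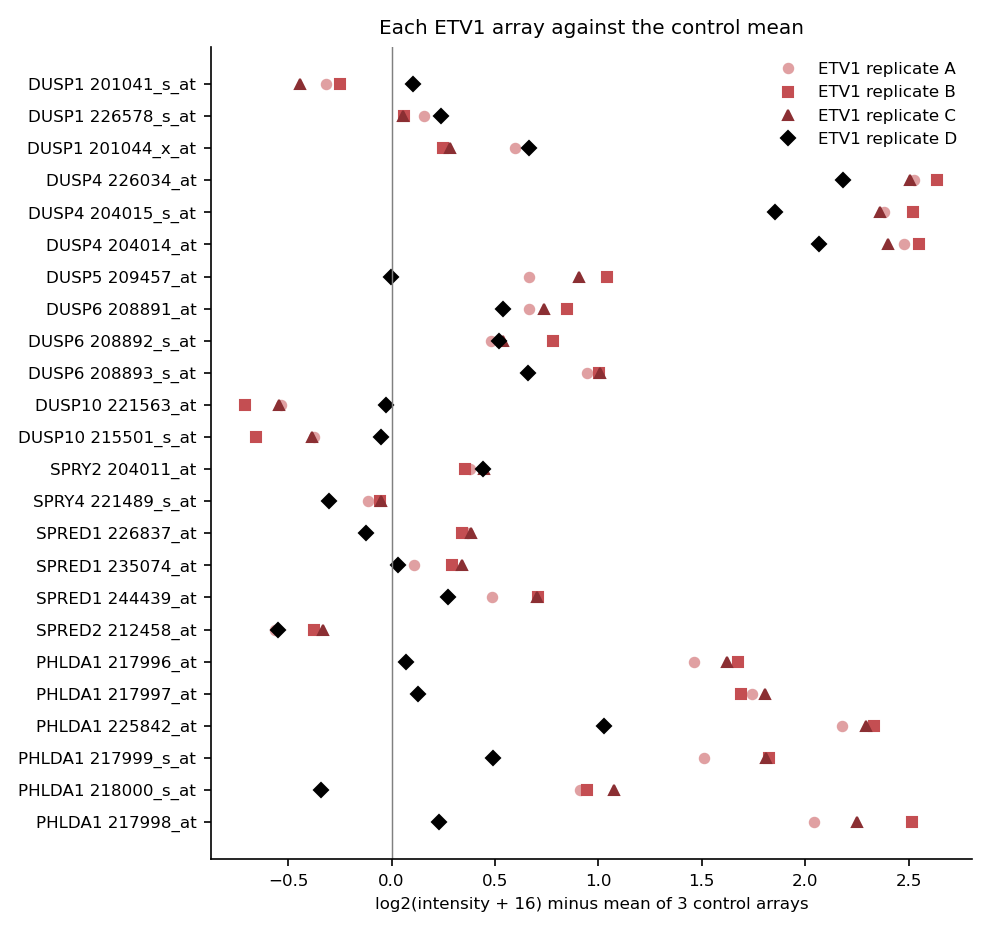
Log2(intensity + 16) of each ETV1 array minus the mean of the 3 control arrays (horizontal axis), for the 24 tested probe sets. Each point is an array. Array D (black) lies near the control line for PHLDA1 217996_at at 0.07 and at 2.18 for DUSP4 226034_at.

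The wider pathway was read in 5 lists of other genes, counted by gene. In ETV1 cells other receptor and RAS-level inhibitors rose in 5 of 13 tested and fell in 1, against 13.5% risen and 18.2% fallen over all genes tested. LRIG1, which promotes degradation of receptor tyrosine kinases, rose by 1.42 ± 0.16 (SE), and read 114 to 137 on ETV1 arrays and 30.4 to 52.6 on control arrays (211596_s_at). Its other tested probe set, 238339_x_at, averaged 599.7 ± 58.0 on ETV1 arrays (SD, n = 4) and 627 ± 196 on control arrays (n = 3) and did not pass, at -0.02 (adjusted p = 0.969). SOCS3, a feedback inhibitor of cytokine receptors, rose by 1.31 ± 0.18 in 1 of its 2 probe sets, and CBLB, a ubiquitin ligase acting on receptors, by 0.88 ± 0.15. The LRIG1 and SOCS3 probe sets that rose lay above the array median on no control array. Both genes thus count among the 5 only through probe sets that entered the test on arrays where they are high. PEBP1, which binds RAF and limits MEK activation, was the 1 that fell, at -0.74 ± 0.15, with all 3 probe sets lower.

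Of 9 other dual-specificity phosphatases tested, 1 rose and 3 fell in ETV1 cells, against 13.5% risen and 18.2% fallen over all genes tested. DUSP7, a cytoplasmic ERK phosphatase related to DUSP6, read 1305 to 1663 on ETV1 arrays and 685 to 1003 on control arrays, a rise of 0.80 ± 0.15 (SE, adjusted p = 0.00113), and its other probe set rose too. That other DUSP7 probe set lay above the array median on no control array, so it entered the test through arrays where it is high. DUSP8 and DUSP16, phosphatases of JNK and p38, fell, at -0.53 and -0.49, each by 1 of 2 probe sets. DUSP2 fell too, from dim values that passed the filter through the ERG-labelled arrays, with 1.77 to 28.9 on ETV1 arrays and 26.4 to 41.7 on control arrays.

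The cascade itself showed no gene that rose in ETV1 cells, and 3 of 14 tested fell. That is 21.4% fallen, near the 18.2% fallen over all genes tested, of which 13.5% rose. The same shares over all genes stand beside the other counts of this paragraph. These were MAPK3, which encodes ERK1 (-0.51 ± 0.15), the receptor adaptor GRB2 (-0.54 ± 0.14) and PTPN11 (-0.55 ± 0.16). The MAPK3 probe set lay above the array median on no ETV1 array, so it entered the test through the other arrays, where it is high. GRB2 fell by 1 of its 3 probe sets and PTPN11 by 1 of its 6. Of ERK target genes, 9 of 23 tested rose and 3 fell. FOSL1 rose by 1.96 ± 0.31 (SE, adjusted p = 0.000298), FOSL2 by 1.11 ± 0.19 (2 of its 5 probe sets passed) and CCND1, which encodes cyclin D1, by 0.99 ± 0.15. EGR1 (-1.19 ± 0.29), JUN (-0.88 ± 0.15) and JUNB (-0.65 ± 0.14) were the 3 that fell, all immediate early genes, with 2 of 3 probe sets of EGR1 and 2 of 4 of JUN past the threshold. In the JNK and p38 list 2 of 8 tested rose, MAPK11 and MAPKAPK3, and 2 fell, MAPKAPK2 and MAPK9. The MAPK11 probe set lay above the array median on no control array, so it entered the test through arrays where it is high.

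**Figure D4:**
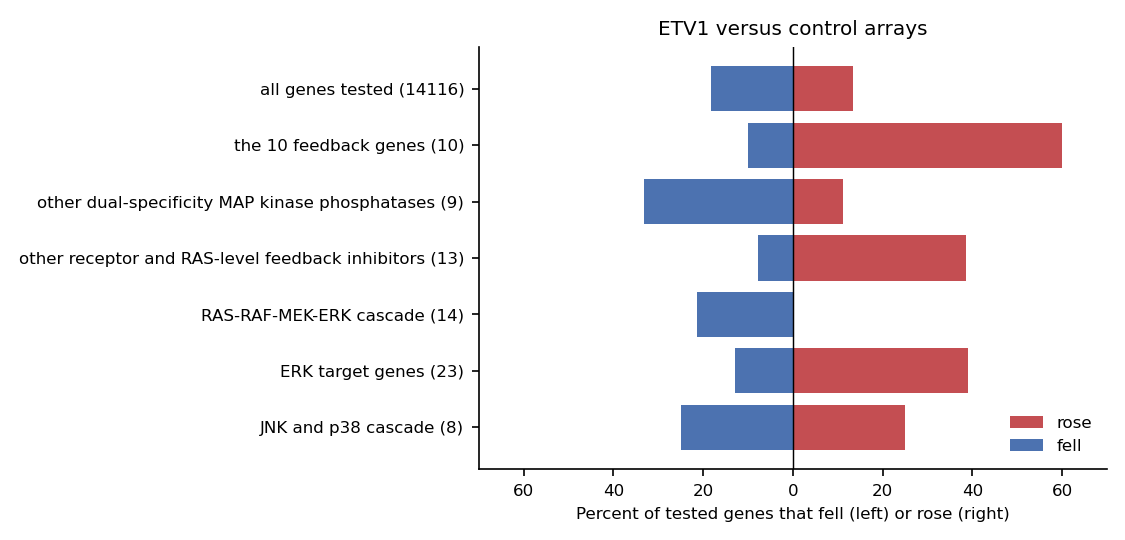
Percent of tested genes that fell (left of 0) or rose (right of 0) in ETV1 versus control, for all 14116 genes tested, the 10 feedback genes and 5 other pathway lists, with the number tested in brackets. The feedback genes stand at 60% risen, which includes SPRED1 through a probe set that entered the test only through ETV1 arrays, the cascade at 0% risen and all genes at 13.5%.

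On the ERG-labelled arrays the count of changed feedback probe sets was no more than that of probe sets at large. Of 24 tested, 18 passed against control, 14 higher and 4 lower, where 78.4% of all probe sets tested passed, 43.3% higher and 35.1% lower. Their median log2 fold change was 0.60, against 0.17 over all tested. The groups did not overlap for 18 of the 24 and for 76.8% of all tested. By gene, DUSP4, DUSP5, DUSP6, SPRY2 and PHLDA1 rose, DUSP1 and SPRY4 fell, SPRED1 went both ways, and DUSP10 and SPRED2 did not pass. SPRED2 212458_at (0.33, adjusted p = 0.0799) passed without ERG-labelled array B (0.51, adjusted p = 0.00904) and under median centring (0.74, adjusted p = 0.000383), and turned to -0.068 under quantile normalization. Over all genes tested 40.5% rose and 30.9% fell.

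The scaling decided several of these values. Median centring moved the median log2 fold change of all probe sets to 0.58 and quantile normalization moved it to 0.05. As deposited, 11244 probe sets were higher and 9115 lower in ERG-labelled versus control, against 14681 higher and 6841 lower after median centring. The PHLDA1 log2 fold changes stayed far above that median under each scaling, at 1.69 to 2.98 after quantile normalization and 1.96 to 3.58 after median centring. DUSP6 did not: after quantile normalization 208891_at stood at 0.53 (adjusted p = 0.000988), 208892_s_at at 0.10 (adjusted p = 0.474) and 208893_s_at at -0.14 (adjusted p = 0.307). DUSP1 226578_s_at stayed low throughout, at -2.34 after quantile normalization and -2.14 after median centring.

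**Figure D5:**
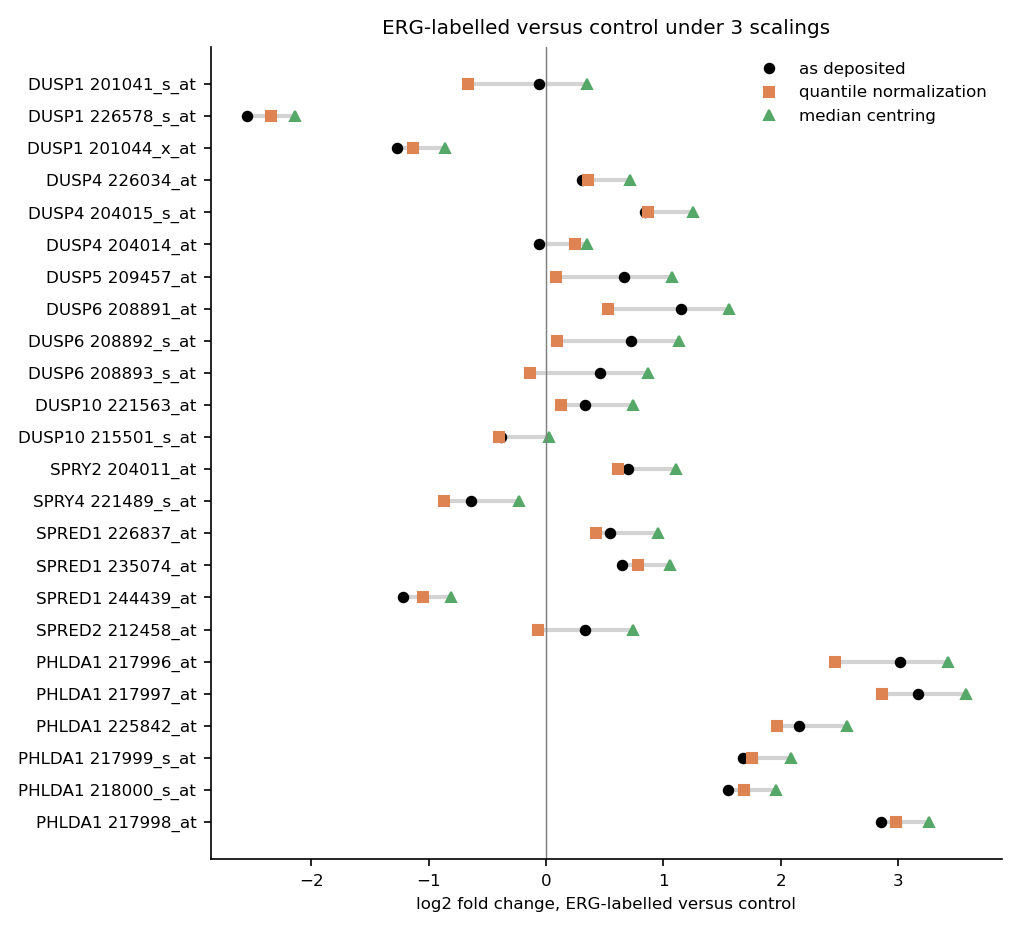
Log2 fold change of ERG-labelled versus control arrays (horizontal axis) for the 24 tested probe sets with the values as deposited, after quantile normalization and after median centring. Grey lines join the 3 values of a probe set. The 6 PHLDA1 probe sets lie at 1.55 or above under all 3 scalings, while DUSP6 208893_s_at runs from -0.14 to 0.87.

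In the wider pathway, all 9 other phosphatases tested passed on the ERG-labelled arrays, 6 of which rose and 3 fell. Over all 14116 genes tested, 40.5% rose, 30.9% fell, 2508 went both ways and only 1539 did not pass. Most genes of any list thus passed here, and the counts of the 5 lists are to be read beside these shares. DUSP2, a nuclear ERK phosphatase, averaged 313 ± 47.1 on ERG-labelled arrays and 33.2 ± 7.79 on control arrays (SD, n = 3 each), and DUSP7 averaged 2861 ± 291 on ERG-labelled arrays and 855 ± 160.0 on control arrays. DUSP19 rose by 1.47. DUSP2 and DUSP19 lay above the array median on the ERG-labelled arrays only, so they entered the test through the arrays where they are high. In this list DUSP3, DUSP8 and DUSP22 fell, at -0.45, -0.67 and -0.92. DUSP3 201536_at (-0.20, adjusted p = 0.261) and 201537_s_at (-0.32, adjusted p = 0.0809) and DUSP22 218845_at (-0.07, adjusted p = 0.693) did not pass. Of 13 RAS-level inhibitors 3 rose (SOCS3, RASA3 and CBLB), 4 fell, 5 went both ways and 1 did not pass. SPRY3 had the largest fall among them, at -2.50 ± 0.14 (SE), followed by IL17RD, an inhibitor of FGF receptor signalling, at -1.02 and SPRED3 at -0.96. SPRY3 lay above the array median on no ERG-labelled array and IL17RD on 1. Both thus entered the test through the ETV1 and control arrays, where they are high. In the cascade 5 of 14 rose, 2 fell and 5 went both ways, among them ARAF at 2.47, MAPK3 at 1.99, RPS6KA3 at 0.77, MAP2K2 at -0.89 and SOS2 at -2.75. The ARAF probe set entered the test only through the ERG-labelled arrays, where it is high, and the other ARAF probe set stood at -0.27 (adjusted p = 0.13). RPS6KA3 226335_at (-0.16, adjusted p = 0.44) and MAP2K2 202424_at (0.05, adjusted p = 0.785) did not pass. For SOS2, 212870_at did not pass (0.21, adjusted p = 0.264), while 211665_s_at (-1.66) and 217644_s_at (-1.27) fell too. Of these, 211665_s_at lay above the array median on 1 ERG-labelled array and 217644_s_at on none, so they entered the test through arrays where they are high. Of ERK targets 8 of 23 rose, 7 fell and 2 went both ways. KCNN4 (2.27), PHLDA3 (1.67) and LIF (1.63) rose the most, and EGR1 (-2.00), EGR3 (-1.98) and SPHK1 (-0.77) fell the most. The LIF probe set lay above the array median on no control array, so it entered the test through arrays where it is high. The EGR3 probe set lay above the median on no ERG-labelled array and on 2 control arrays. It too entered the test through arrays where it is high. EGR1 is given by 227404_s_at, the 1 of its 3 probe sets that passed: 201694_s_at stood at -0.02 (adjusted p = 0.944) and 201693_s_at at 0.42 (adjusted p = 0.244). The JNK and p38 list held 2 that rose of 8 tested, MAPK13 (0.86) and MAP2K4 (0.65), and 4 that went both ways. For MAP2K4, 203265_s_at did not pass, at -0.31 (adjusted p = 0.104).

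Set directly against ETV1, the ERG-labelled arrays were higher at DUSP10, SPRY2, SPRED2 and PHLDA1 and lower at DUSP1, DUSP4 and SPRY4, while DUSP6 and SPRED1 went both ways and DUSP5 did not pass (0.01 ± 0.21, adjusted p = 0.962). The SPRY2 call (0.30, adjusted p = 0.0391) was lost under quantile normalization (0.16, adjusted p = 0.122) and without any 1 of the 4 ETV1 arrays, control array B or ERG-labelled array B or C (0.27 to 0.31, adjusted p of 0.052 to 0.0874). The SPRY4 call (-0.51, adjusted p = 0.00224) was lost under median centring (-0.08, adjusted p = 0.574). For DUSP1, 201041_s_at did not pass as deposited, turned to -0.63 under quantile normalization and passed at 0.59 under median centring, while the 2 other probe sets were lower. By probe set 17 of 24 passed, 9 higher and 8 lower, where 82.1% of all tested passed, 45.6% higher and 36.5% lower. The median log2 fold change was 0.18 over the 24 and 0.20 over all tested, and for 15 of the 24 the groups did not overlap, as for 80.2% of all tested. SPRED2 212458_at was higher on the ERG-labelled arrays by 0.79 ± 0.16 (SE, adjusted p = 0.000212), without overlap. DUSP10 221563_at passed at 0.78 ± 0.24 (adjusted p = 0.00689), although its ranges overlapped. The other DUSP10 probe set, 215501_s_at, did not pass, at -0.01 ± 0.24 (adjusted p = 0.96).

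Some genes elsewhere on the arrays ran closely with the feedback genes over the 7 ETV1 and control arrays. For DUSP4 226034_at the 5 highest Pearson correlations belonged to FBN2, SCEL, SOX9, HIPK2 and VCAN, from 0.9983 to 0.9997. For PHLDA1 217996_at they belonged to TAF1A, STX1A, ZNF697, C7orf57 and SYT1, from 0.9944 to 0.9976. For DUSP6 208891_at they were ABCF2, LARP1B, MIS18A, GDF15 and CLMN, from 0.9935 to 0.9945, and for SPRY4 they were HGS, DMTF1, SEPSECS, STAMBP and TLCD2, from 0.9883 to 0.992. The arrays share 2 groups, and such values describe these 7 arrays only.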

How the data were processed

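Total RNA was extracted with Trizol and biotin-labelled cRNA was hybridised, per the labels' protocols. The deposited values are intensity per probe set on a linear scale with a floor of 1. The sources used here do not give how the authors summarised and normalised them, and no further scaling was applied. Of 54675 probe sets, 41091 named 1 gene in GEO's platform annotation, 1801 several and 11721 none, and 62 were controls. No 2 arrays held identical values. Tests used limma 3.58.1 (lmFit and eBayes) in R 4.3.3, as two-sided tests in 1 model of the 3 groups (7 residual degrees of freedom) on log2(intensity + 16), which understates the fold changes of dim probe sets. The fit was tested on simulated data. The 10 genes, the pathway lists and the markers were chosen with earlier results of these data known. Of the list genes, 14 of 15 receptor and RAS-level inhibitors, 14 of 19 cascade genes, 23 of 24 targets, 9 of 12 JNK and p38 genes and 10 of 10 phosphatases had a probe set naming them alone in the annotation used. From each list the text names up to 3 of the largest rises and 3 of the largest falls per comparison with control, by the brightest passing probe set. Alternatives were 2 other scalings, 2 other pseudocounts, 2 other filters, restricted probe sets, other variance settings, a stricter threshold, the replicate letter as a block and leaving out each array.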

Additional observations from a re-analysis of the deposited data

Results flagged for a closer look

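Of the 26 probe sets of the 10 genes, 4 had 1 ETV1 array far from the other 3, by Dixon's gap ratio over the 4 ETV1 arrays, which chance alone gives in about 1 in 20 groups. For PHLDA1, array D read 169.28 at 217997_at, where arrays A to C read 530.3 to 577, and 346.56 at 225842_at, where arrays A to C read 789 to 878. SPRED1 226837_at read 274.16 on array D and 385 to 396 on arrays A to C. DUSP6 208892_s_at read 3498.88 on array B and 2845 to 2956 on the other 3.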

How the results depend on the processing

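Of the 24 tested probe sets of the 10 genes, 11 kept direction and side of the threshold in ETV1 versus control under all 23 alternatives, 14 in ERG-labelled versus control and 10 in ERG-labelled versus ETV1. Counts are given here in that order of comparison. Leaving out 1 array gave 11 to 16, 17 to 19 and 14 to 17 probe sets past the threshold, and 4087 to 7155, 17733 to 20295 and 18697 to 21441 among all tested. The brightest probe set of each gene gave 6, 6 and 7 of 10, and 3556, 11212 and 11741 among all tested, with fewer probe sets tested. Without probe sets whose name marks possible cross-matching, the counts were 10 in ERG-labelled versus control, 11 in ERG-labelled versus ETV1, and 3254, 12291 and 12830 among all tested. The 75th percentile filter gave 11154 and 11848 for the 2 comparisons of ERG-labelled arrays. In ETV1 versus control, a threshold of 0.01 gave 3454 and array weights, whose estimation did not converge, gave 17480. Reversals follow as log2 fold changes, and where no construction shows the cause it was not tested. Quantile normalization gave 0.25 for DUSP4 204014_at, -0.14 for DUSP6 208893_s_at and -0.068 for SPRED2 212458_at in ERG-labelled versus control. In ERG-labelled versus ETV1 it gave -0.63 for DUSP1 201041_s_at, -0.36 and -0.66 for DUSP6 208891_at and 208892_s_at, -0.73 for DUSP5 and -0.22 for PHLDA1 225842_at. Median centring gave 0.35 for DUSP1 201041_s_at, 0.35 for DUSP4 204014_at and 0.028 for DUSP10 215501_s_at in ERG-labelled versus control, and 0.42 for DUSP10 215501_s_at in ERG-labelled versus ETV1, where a pseudocount of 64 gave 9e-04. Array weights gave -0.017 for DUSP1 201044_x_at in ETV1 versus control, -0.41 for DUSP10 221563_at in ERG-labelled versus control, and -0.29 for DUSP5, -0.11 for PHLDA1 217999_s_at and -0.47 for PHLDA1 225842_at in ERG-labelled versus ETV1. Left-out arrays gave -0.12 to 0.0046 for DUSP1 201041_s_at and -0.62 to 0.019 for DUSP10 215501_s_at in ERG-labelled versus control. In ERG-labelled versus ETV1 they gave -0.21 to 0.14 for DUSP5, -0.25 to 0.39 for DUSP10 215501_s_at, -0.037 to 0.41 for PHLDA1 217999_s_at and -0.11 to 0.44 for PHLDA1 225842_at. The replicate letters share only a name: deviations of same-lettered arrays correlated at -0.0992 to 0.0872. With the letter as a replicate block, in which ETV1 array D has no partner and drops out of the contrasts, 14, 18 and 15 probe sets of the 10 genes passed, and 5243, 20139 and 20667 among all tested. The block gave -0.21 for DUSP5, 0.091 for DUSP10 215501_s_at, -0.037 for PHLDA1 217999_s_at and -0.11 for PHLDA1 225842_at in ERG-labelled versus ETV1. Dim probe sets, such as DUSP1 201044_x_at and SPRED1 244439_at, lie below the array median on the ERG-labelled arrays, which limits how well their falls there are measured.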
